A study of Mus musculus with 11 samples.

Results

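The collagens and meningeal fibroblast genes of the mouse cortex form a set of 10 genes, Col1a1, Col1a2, Col3a1, Col4a1, Col4a2, Dcn, Lum, Igf2, Igfbp2 and Slc6a13, out of 53700 gene identifiers that were counted in every animal. The members were chosen by name from results of these same samples, so their KO against WT values are given below as a description. No conclusion is drawn from their p-values. Read counts came from the cerebral cortex of female 5xFAD mice on a C57BL/6 background, 8 months old. There were 6 mice with intact Abi3 (Abi3 +/+, labelled Abi3 WT) and 5 mice without it (Abi3 -/-, labelled Abi3 KO). The mice of both genotypes carried the 5xFAD transgenes, which hold mutations of familial Alzheimer's disease, lead to amyloid deposits and are driven by the neuronal Thy1 promoter, and by the study's methods all were heterozygous for a Trem2 variant of the SJL strain. The 5xFAD line was bought on a mixed B6SJL background and the Abi3 deletion was made in C57BL/6N, so that sequence next to the deleted gene may differ in strain of origin between genotypes. The deletion is carried by all cells and not only by microglia, in which Abi3 is enriched. Comparison of KO with WT asks how loss of Abi3 alters gene expression in a cortex with amyloid.

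Fibroblasts are not a cell type of the brain parenchyma. They lie in the meninges, the membranes around the brain, and along larger vessels, where they secrete fibrillar collagens and the proteoglycans that organise the fibrils. Type IV collagen is different: it forms the sheet of the basement membrane and is made largely by endothelial cells, pericytes and other mural cells of the vessel wall. A cortex sample thus holds these transcripts through the vessels it contains and the meninges that remain on it, and in such bulk RNA fewer cells of a type and less RNA per cell cannot be told apart.

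The libraries held 3202310 to 5501958 reads in genes. Abi3 itself had 10 to 38 reads in the WT libraries and 0 to 2 in the KO libraries, with 0 reads in 4 of 5. The genes tested numbered 17626, those whose mean normalized count (the read count scaled for library depth by DESeq2 size factors) was 1.5 or more. With DESeq2, 95 of these passed a Benjamini-Hochberg adjusted p of 0.05, which is 0.539% of the genes tested. In 3 libraries, WT mouse 4 and KO mice 1 and 5, the summed level of 11 choroid plexus markers, such as Ttr, was 1994 to 3699 normalized counts, whereas it was 125 to 248 in the other 8. Reads outside annotated genes numbered 59.3 to 68.8 for each 100 reads in genes in WT and 49.8 to 62.5 in KO libraries. Levels of neuronal markers were high in every animal, with a sum of 14430 to 17690 over 6 genes. Markers of the striatum summed to 1469 to 2605 over 6 genes, so that tissue from below the cortex was present as well.

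The members are spread over several chromosomes. By the GENCODE annotation of GRCm39, the build of the counts, Col1a1 (ENSMUSG00000001506) lies at chr11:94827050-94843868 on the plus strand, 877 kb from Abi3 at chr11:95720900-95733302. Of the 12 genes tested between them, 0 passed the threshold with DESeq2, edgeR or limma, beside 0.539%, 0.21% and 0.113% of all genes tested. At an unadjusted p under 0.05 there were 0 with each tool, beside 8.58%, 8.59% and 8.28%. With so few genes, nothing is read from these counts. The fold change was negative for 8 of the 12, and the median was -0.08 on the log2 scale. Since a gene at this distance is mostly inherited together with the deletion, an effect of Abi3 and an effect of linked sequence on Col1a1 cannot be told apart in this design. No other member shares that chromosome. Col3a1 (ENSMUSG00000026043) at chr1:45350698-45395840 and Igfbp2 (ENSMUSG00000039323) at chr1:72863606-72891634 are on the plus strand of chromosome 1. Col1a2 (ENSMUSG00000029661) at chr6:4504814-4541555 and Slc6a13 (ENSMUSG00000030108) at chr6:121277186-121316121 are on the plus strand of chromosome 6, and Igf2 (ENSMUSG00000048583) is at chr7:142204503-142220694 on the minus strand. Dcn (ENSMUSG00000019929) at chr10:97315275-97358155 and Lum (ENSMUSG00000036446) at chr10:97400990-97408577 are neighbours on the plus strand, 43 kb apart. Col4a1 (ENSMUSG00000031502) at chr8:11248423-11362826 on the minus strand and Col4a2 (ENSMUSG00000031503) at chr8:11362471-11499287 on the plus strand lie head to head and overlap by 356 bases at their 5′ ends. The counting used the strand, so that reads of these overlapping genes were kept apart.

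RefSeq start windows (build GRCm38.p6, unlike the GRCm39 positions above) matched 7 of the 10 members, with 13 windows. The 250 bases before the start of Col1a2 and of Col3a1 are shown, the fibrillar collagens of the set that had a window. The capitals mark matches on either strand to the letters of the TATA box (TATAAA), the CCAAT box (CCAAT) and the GC box (GGGCGG), and no match overlaps another.
Col1a2, chr6:4505368-4505617, plus strand: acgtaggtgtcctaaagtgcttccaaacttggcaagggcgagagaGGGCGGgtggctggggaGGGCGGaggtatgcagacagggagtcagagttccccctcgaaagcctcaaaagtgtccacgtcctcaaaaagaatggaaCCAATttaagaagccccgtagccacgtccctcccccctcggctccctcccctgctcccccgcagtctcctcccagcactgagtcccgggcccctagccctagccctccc
Col3a1, chr1:45311288-45311537, plus strand: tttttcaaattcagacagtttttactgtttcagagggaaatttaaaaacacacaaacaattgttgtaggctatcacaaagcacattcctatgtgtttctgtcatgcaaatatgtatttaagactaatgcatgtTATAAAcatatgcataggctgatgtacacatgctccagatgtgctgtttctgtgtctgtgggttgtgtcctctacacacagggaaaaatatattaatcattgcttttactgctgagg
In Col1a2 there were 2 GC box matches, which begin 205 and 188 bases before the start, and 1 CCAAT box match, which begins 109 bases before it. Col3a1 held a single TATA box match, 117 bases before its start. Among the 32851 RefSeq windows, the same 250 bases held the TATA box letters in 12.4%, the CCAAT box letters in 33.8% and the GC box letters in 32.7%. Of the 13 member windows, 1 held a TATA box (Col3a1), 5 held a CCAAT box (1 window each of Col1a2, Col4a1, Col4a2, Igf2 and Slc6a13) and 6 held a GC box. The RefSeq starts of Col4a1 (chr8, base 11312826) and Col4a2 (chr8, base 11312805) give transcripts in opposite directions that share their first 22 bases. A letter match is a description of the sequence and not a measured binding site.

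Among the fibrillar collagens, the KO mean of Col1a1 was 0.522 times the WT mean, whereas the means of Col1a2 and Col3a1 were close in both genotypes. Col1a1 and Col1a2 encode the alpha-1 and alpha-2 chains, which assemble together into type I collagen, the main fibre of connective tissue. In WT mice Col1a1 ranged from 8.69 to 53.6 normalized counts with a median of 30.0. The KO mice 1 to 5 had 10.5, 31.3, 16.7, 16.9 and 9.10. Thus 4 of 5 KO mice were below the WT median, although the lowest animal of all was WT mouse 5 and the groups overlapped. The mean was 32.4 ± 17.3 (SD, n = 6) in WT and 16.9 ± 8.80 (SD, n = 5) in KO, and the log2 fold change was -0.93 with a standard error of 0.44 and a 95% interval from -1.78 to -0.07. In raw reads this is 12 to 76 per WT library and 8 to 31 per KO library. Leaving out each animal in turn gave -1.28 to -0.73, and without the 3 libraries high in choroid plexus markers it was -0.67.

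Col1a2 did not share this difference. In WT mice Col1a2 ranged from 44.9 to 112 normalized counts with a median of 88.4, and KO mice 1 to 5 had 106, 114, 62.1, 72.3 and 74.0. All KO values lay within the span of the WT values except that of KO mouse 2, which was the highest of all. The means were 82.9 ± 26.1 (SD, n = 6) and 85.7 ± 22.9 (SD, n = 5), with a log2 fold change of 0.06 (standard error 0.24) and an interval from -0.41 to 0.53. There were 3 of 5 KO mice below the WT median. The interval spans KO levels from 0.752 to 1.44 times the WT level.

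Because both type I chains were read in the same libraries, their ratio does not depend on the depth of a library. In WT mice there were 0.194 to 0.507 Col1a1 reads for each Col1a2 read, with a median of 0.370. KO mice 1 to 5 had 0.099, 0.274, 0.269, 0.234 and 0.123. All 5 KO ratios were below the WT median and 5 of 6 WT ratios were above every KO ratio, but WT mouse 5 with 0.194 fell among the KO mice. Summed over animals the ratio was 0.393 in WT and 0.197 in KO. A 3′ read ratio is not a ratio of molecules, and only its difference between animals can be read.

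Col3a1 encodes type III collagen, which forms thin fibres together with type I. It was sparse, with 3 to 27 reads per WT library and 1 to 21 per KO library. In WT mice Col3a1 ranged from 3.42 to 18.1 normalized counts with a median of 9.74, and KO mice 1 to 5 had 22.02, 14.1, 4.77, 1.13 and 6.83. The KO mice thus held both the highest and the lowest value. The means of 10.01 ± 5.85 (SD, n = 6) and 9.78 ± 8.33 (SD, n = 5) were close, with a log2 fold change of -0.03, a standard error of 0.62 and an interval from -1.25 to 1.19. The interval spans 0.419 to 2.28 times the WT level, and a difference within it was not detectable with this depth and this spread between animals. Leaving out each animal in turn gave a log2 fold change of -0.57 to 0.26, and without the 3 libraries high in choroid plexus markers it was -0.73.

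**Figure D1:**
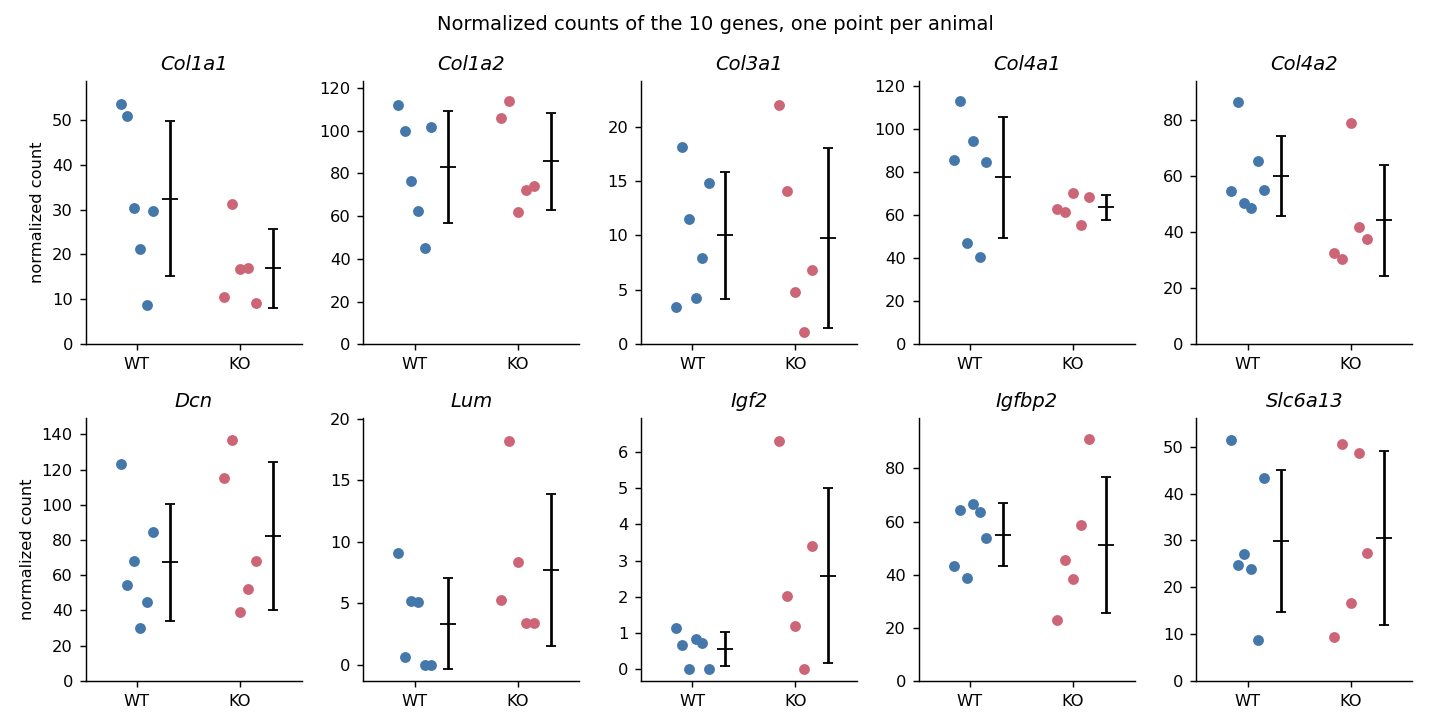
Normalized counts (vertical axes, starting at or just below 0) of the 10 genes in 6 WT and 5 KO cortices, one point per animal, with the mean and SD beside each group. Col1a1 sits at 9.10 to 31.3 in KO against 8.69 to 53.6 in WT, and the groups overlap for every gene.

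The basement membrane collagens were both lower on average in KO, with overlap between groups. Col4a1 and Col4a2 encode the alpha-1 and alpha-2 chains of type IV collagen, which are joined in the same network around every brain vessel. In WT mice Col4a1 ranged from 40.6 to 113 normalized counts with a median of 85.1. KO mice 1 to 5 had 62.9, 61.6, 70.4, 55.3 and 68.3, all below the WT median but above WT mice 3 and 5. The WT values were spread widely, 77.6 ± 28.2 (SD, n = 6), and the KO values narrowly, 63.7 ± 5.94 (SD, n = 5). The log2 fold change was -0.29 (standard error 0.25), with an interval from -0.77 to 0.20. It turned to 0.09 when the fit also held each library's share of reads outside genes, which goes largely with genotype.

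In WT mice Col4a2 ranged from 48.6 to 86.3 normalized counts with a median of 54.9. KO mice 1, 2, 4 and 5 had 32.5, 30.3, 41.8 and 37.6, all below every WT animal. KO mouse 3 had 78.8, above 5 of 6 WT animals, so that the groups overlapped through this animal alone. The means were 60.01 ± 14.1 (SD, n = 6) and 44.2 ± 19.8 (SD, n = 5), with a log2 fold change of -0.46 (standard error 0.27) and an interval from -0.98 to 0.07. Without KO mouse 3 the log2 fold change of Col4a2 was -0.77, and across all animals left out in turn it was -0.77 to -0.32. The summed level of both chains was 97.3 to 199 in WT and 91.9 to 149 in KO.

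The chains of type IV collagen were not in a fixed ratio across animals. In WT mice there were 0.514 to 1.61 Col4a2 reads for each Col4a1 read with a median of 0.707, and in KO mice 0.492 to 1.12 with a median of 0.550. The spread within each genotype was larger than the difference between their medians. Markers of the cells that make type IV collagen overlapped between groups as well: 11 endothelial markers summed to 1139 to 1462 normalized counts in WT and 1257 to 1451 in KO, and 9 pericyte markers to 492 to 701 in WT and 505 to 612 in KO. No listed endothelial or pericyte marker was at 0 in all animals, and their part in the Col4a1 and Col4a2 values was not tested.

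**Figure D2:**
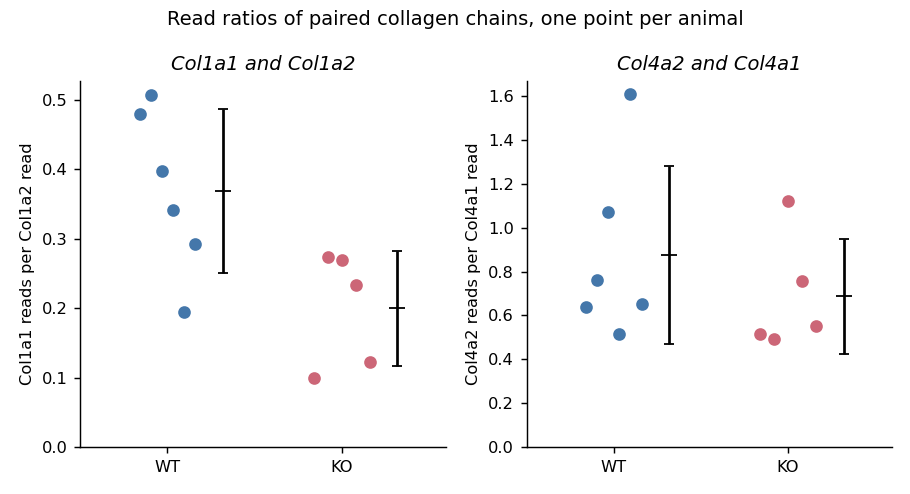
Read ratios (vertical axes, from 0) of Col1a1 to Col1a2 and of Col4a2 to Col4a1 in each of 6 WT and 5 KO cortices, with the mean and SD beside each group. All KO ratios of Col1a1 to Col1a2 (0.099 to 0.274) lie below the WT median of 0.370, while the Col4a2 to Col4a1 ratios of the groups are interleaved.

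Dcn and Lum encode decorin and lumican, small leucine-rich proteoglycans that bind collagen fibrils and set their spacing. Their means were higher in KO, by an amount that rested in part on KO mouse 2. In WT mice Dcn ranged from 29.8 to 123 normalized counts with a median of 61.1, and KO mice 1 to 5 had 115, 137, 39.4, 52.0 and 68.3. KO mice 1 and 2 together with WT mouse 1 stood above all others. The means were 67.5 ± 33.2 (SD, n = 6) in WT and 82.5 ± 42.1 (SD, n = 5) in KO. The log2 fold change of 0.30 was smaller than its standard error of 0.33, with an interval from -0.34 to 0.95. It was 0.04 without KO mouse 2, the lowest of 0.04 to 0.56 on leaving out each animal, and 0.04 without the 3 libraries high in choroid plexus markers.

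Lum was near the floor of 3 reads, at or under which a gene was not told from none. It had 0, 0, 1, 5, 6 and 8 reads in the WT libraries and 5, 18, 7, 3 and 3 in KO mice 1 to 5, so that 3 WT and 2 KO libraries were at or under the floor. All KO mice were above the WT median of 2.89 normalized counts, and 3 of 6 WT mice fell within the KO values of 3.39 to 18.2. In total there were 20 reads in WT and 36 in KO, and the log2 fold change of 1.25 (standard error 0.87) had an interval from -0.46 to 2.96. It was 0.64 without KO mouse 2, the lowest of 0.64 to 1.85 on leaving out each animal. Counting error alone was 44.3% of the mean count for Lum, compared with 11.6% for Dcn.

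Of the growth factor and binding protein of the set, only the latter had enough reads to be tested. Igf2, insulin-like growth factor 2, is a secreted growth factor made in the adult brain mainly by the meninges and the choroid plexus. It had 16 reads in all libraries. In the WT libraries there was at most 1 read each, 4 reads in total, and KO mice 1 to 5 had 6, 2, 1, 0 and 3 reads, 12 in total. Its mean normalized count of 1.48 was just under the minimum of 1.5, so that Igf2 was not tested and no fold change is given. The KO libraries with the most Igf2 reads, mice 1 and 5, are also 2 of the 3 libraries high in choroid plexus markers, but the third, WT mouse 4, had 1 read. The part of choroid plexus tissue in the Igf2 reads was not tested.

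Igfbp2 encodes a secreted protein that binds insulin-like growth factors, and is expressed in the adult brain by meninges, choroid plexus and astrocytes. In WT mice Igfbp2 ranged from 38.7 to 66.5 normalized counts with a median of 58.9, and KO mice 1 to 5 had 23.1, 45.5, 38.2, 58.7 and 91.0. The lowest and the highest value both came from KO mice that were high in choroid plexus markers. The means of 55.1 ± 11.8 (SD, n = 6) and 51.3 ± 25.7 (SD, n = 5) differed by -0.11 on the log2 scale (standard error 0.29), with an interval from -0.68 to 0.45.

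Slc6a13 encodes GAT2, a transporter that takes up GABA and taurine at the meninges and at the blood-brain barrier. In WT mice Slc6a13 ranged from 8.69 to 51.4 normalized counts with a median of 26.0, and KO mice 1 to 5 had 9.44, 50.5, 16.7, 48.6 and 27.3. Both groups covered nearly the same span. The means were 29.9 ± 15.2 (SD, n = 6) and 30.5 ± 18.5 (SD, n = 5), with a log2 fold change of 0.05 (standard error 0.43) and an interval from -0.80 to 0.89.

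Counted over the set, 9 of 10 members were tested and 3 (Col1a2, Col4a1 and Dcn) were abundant enough for DESeq2 to give an adjusted p. With DESeq2 0 of 9 passed the adjusted threshold, compared with 0.539% of all genes tested. At an unadjusted p under 0.05 there was 1 of 9, Col1a1, beside 8.58% of all genes tested. Col1a1 was not under it without KO mouse 1, 4 or 5, without WT mouse 2 or without the 3 libraries high in choroid plexus markers. Nor was it with the replicate numbers as a block or with each library's share of reads outside genes in the fit. With edgeR 0 passed, beside 0.21% of all genes, and 1, again Col1a1, was under the unadjusted value, beside 8.59%. With limma 0 passed, beside 0.113%, and the 1 under the unadjusted value, beside 8.28%, was Lum, not Col1a1. The groups were without overlap for 0 of 9 members, compared with 1.04% of all genes tested. Since the members were picked with these contrasts known, nothing is read from these counts. The fold change was positive for 4 members and negative for 5, and the median over the 9 was -0.03 beside 0.00 over all genes tested. The 8 members other than Col4a1 and Col4a2 summed to 282 ± 80.2 (SD, n = 6) normalized counts in WT and 287 ± 82.3 (SD, n = 5) in KO, a difference in mean log2 of 0.03.

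**Figure D3:**
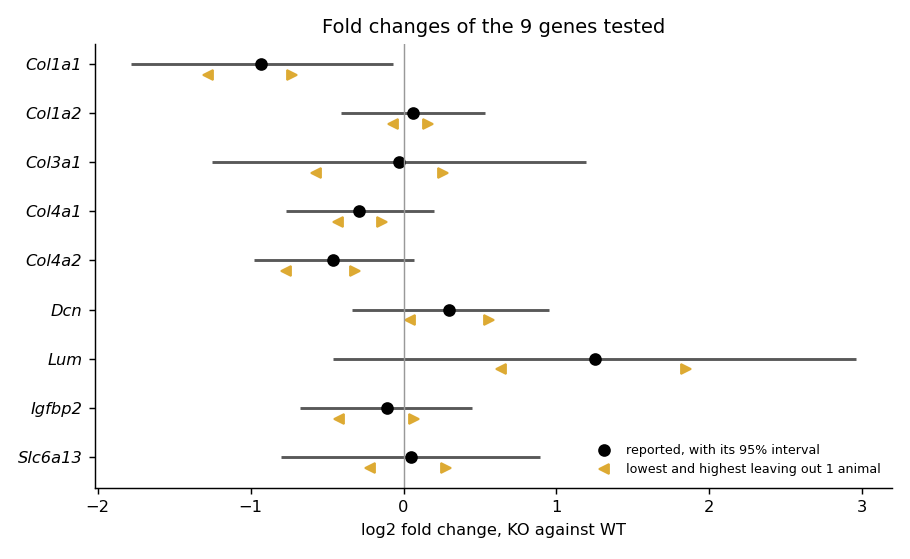
Log2 fold change of KO against WT (horizontal axis) for the 9 members tested, with the DESeq2 95% interval as a line and the lowest and highest value on leaving out 1 animal as arrowheads. Only the interval of Col1a1, from -1.78 to -0.07, does not reach 0, and the arrowheads of Col1a2, Col3a1, Igfbp2 and Slc6a13 lie on both sides of 0. The members were picked with these contrasts known, so no test is read from an interval.

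The spread between animals of the same genotype differed widely among the members. The animal-to-animal variation that DESeq2 fitted (the square root of its dispersion, as a percent of the mean) was 89.1% for Lum, 63.8% for Col3a1, 46.0% for Slc6a13, 44.8% for Col1a1 and 35.8% for Dcn. It was lower for Igfbp2 (29.9%), Col4a2 (27.3%), Col4a1 (25.7%) and Col1a2 (25.1%). The median over the 9 was 35.8%, the same as the 35.8% of all tested genes with a mean normalized count from 5 to 85. For all 9 members it was above the value that DESeq2 fitted to genes of the same abundance, which held for 34.0% of all genes tested, 31.2% of those with a mean from 5 to 85, 47.1% of the other matrix and fibroblast genes listed and 68% of the cell type markers listed, including all of the neuronal, astrocyte, striatal and red blood cell markers tested. The excess was widest for Dcn, 35.8% against 22.8%, and slight for Col4a2, 27.3% against 26.7%. Counting error was 10.8% of the mean for Col1a2 and 19.3% for Col1a1, so that most of the spread of Col1a1 (53.3% of the mean in WT and 52.0% in KO) was above counting error.

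Part of this spread was shared. After the mean of each genotype was set to 0 on the scale of log2(normalized count + 1), Col1a2 and Dcn had the highest correlation across the 11 animals (Pearson r = 0.82, Spearman rho = 0.90, and r = 0.88 without the 2 animals farthest from the median of Col1a2). Col1a1 went with Col1a2 (r = 0.75, rho = 0.59) and with Slc6a13 (r = 0.73, rho = 0.72), although both fell to r = 0.48 without the 2 farthest animals and rest partly on them. Col3a1 was weakly related to Col1a2 (r = 0.44, rho = 0.40, and r = 0.81 without the 2 animals farthest from the median of Col1a2). These are descriptions of libraries that share depth and tissue pieces, and 45 pairs of members were computed. The neighbours Dcn and Lum had r = 0.27 (rho = 0.36, and -0.33 without the 2 farthest animals). Col4a1 and Col4a2, which start within 22 bases of each other, had r = 0.21 (rho = 0.15, and 0.38 without the 2 farthest).

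The set did not behave as a single group. Over the 36 pairs of tested members the median r was 0.14, with 24 pairs above 0 and 12 below. Igfbp2 was negatively related to Dcn (r = -0.43, rho = -0.55, and -0.44 without the 2 farthest animals), and Col4a2 to Dcn (r = -0.53, rho = -0.48, and -0.39 without the 2 farthest). The name of the set is therefore used for the list of genes and not for a cell type measured here. In the list of other fibroblast matrix genes, 17 of 22 whose mean normalized count was 10 or more correlated positively with the mean standardised profile of the 8 members other than Col4a1 and Col4a2, with a median r of 0.27 compared with -0.01 over 12895 genes. The same 22 genes had a median r of 0.27 with Col4a1 and Col4a2 as well, 16 of them positive, compared with 0.01 over all genes.

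**Figure D4:**
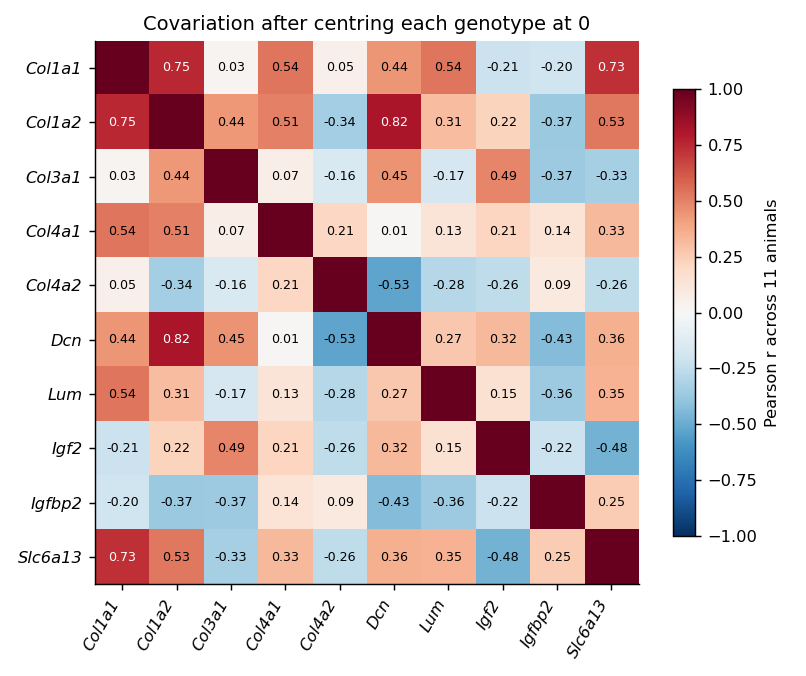
Pearson r across 11 animals (colour and number) between each pair of members after each genotype was centred at 0 on the log2(normalized count + 1) scale. Col1a2 and Dcn (0.82), Col1a1 and Col1a2 (0.75) and Col1a1 and Slc6a13 (0.73) stand highest, while Igfbp2 and Col4a2 are near or below 0 with most others.

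The 10 other genes most like those 8 members by the same measure were Rpp14 (r = 0.91), Pdrg1 (0.90), Pcdh8 (0.89), Bin3, Sla and Abi3 (0.88), Gse1 (0.87), and Abhd12, Prkag2 and Colgalt2 (0.86). None of them is in the list of fibroblast matrix genes and 1, Colgalt2, is in the list of collagen synthesis genes. Abi3 had 0 to 2 reads in the KO libraries, with reads only in KO mouse 2. The KO libraries still held 38.7% of its squared deviations from the genotype means. In the 6 WT animals alone Abi3 had r = 0.90 (rho = 0.83). Without centring on genotype, 6 of the 10 were named again and Abi3 had r = 0.17. The 5 most like Col4a1 and Col4a2 were Zfp212 and Pxn (0.95), Ccdc191 (0.89), Ppp1r15b (0.87) and Pick1 (0.86), of which 1 was named again without centring. With 11 animals and 12895 genes searched, these values are the upper end of many and are given as a ranking.

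Other genes of the matrix and of the fibroblast were examined in 9 lists with 167 genes, of which 155 were tested. With DESeq2 0 of 155 passed the threshold in either direction, beside 0.539% of all genes tested, and 8 had an unadjusted p under 0.05 beside 8.58%. Only 42 of the 155 were given an adjusted p by DESeq2, so the others could not pass with it. With edgeR 0 passed, beside 0.21% of all genes tested, and 9 were under the unadjusted value, beside 8.59%. With limma 0 passed, beside 0.113%, and 12 were under the unadjusted value, beside 8.28%. The groups were without overlap for 2 genes, Igfbp5 and Twist1, beside 1.04% of all genes tested. Fold changes were positive for 74 and negative for 81, with a median of -0.03.

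The list of fibroblast and meningeal matrix had 28 genes tested, 13 with a positive and 15 with a negative fold change, and a median of -0.18 on the log2 scale. Its most abundant members were Pdgfra, a growth factor receptor of fibroblasts that oligodendrocyte precursors express as well, Mgp, a matrix inhibitor of calcification, and Fn1, fibronectin. Pdgfra had 90.1 ± 21.2 (SD, n = 6) normalized counts in WT and 115 ± 57.2 (SD, n = 5) in KO. Mgp had 97.2 ± 49.4 (SD, n = 6) and 74.5 ± 18.9 (SD, n = 5), and Fn1 had 69.3 ± 18.6 (SD, n = 6) and 71.7 ± 8.18 (SD, n = 5). In each case the groups overlapped. Efemp1, a fibulin of the extracellular matrix named after its values were seen, had 10.5 to 38.8 in WT and 27.3 to 54.5 in KO, with a log2 fold change of 1.00 (standard error 0.35).

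In the list of meningeal fibroblast transporters and transcription factors, 26 genes were tested, 13 in each direction, with a median of -0.01. Ptgds, a prostaglandin D synthase of the leptomeninges, had 2257 ± 801 (SD, n = 6) normalized counts in WT and 2705 ± 847 (SD, n = 5) in KO. It is also expressed by oligodendrocytes and the choroid plexus. Foxp1, a transcription factor with wide neuronal expression, had a log2 fold change of -0.06, and Slc7a11, a cystine transporter, of -0.03. Twist1, a mesenchymal transcription factor named after its values were seen, was at 0 in 5 of 6 WT mice and at 1.34 in the other, against 2.26 to 10.1 in KO, which is close to the floor of 3 reads. Cyp1b1, also named after its values were seen, went the other way, with 2.28 to 8.69 in WT and 0.0 to 2.39 in KO. Its log2 fold change was -2.19 (standard error 1.0), likewise close to that floor.

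Enzymes and chaperones of collagen synthesis were centred on 0. Of 24 genes tested, 11 had a positive and 13 a negative fold change, with a median of -0.03. Mia3, which loads collagen into transport vesicles, had 792 ± 65.2 (SD, n = 6) normalized counts in WT and 776 ± 39.1 (SD, n = 5) in KO, and the log2 fold changes of Ppib and P4hb, which fold and hydroxylate the chains, were 0.19 (standard error 0.15) and -0.04 (standard error 0.14). Of 19 other basement membrane genes, 12 had a negative fold change, with a median of -0.09. Sparc, a collagen-binding glycoprotein also made by astrocytes and microglia, had 1158 ± 410 (SD, n = 6) in WT and 851 ± 136 (SD, n = 5) in KO, with a log2 fold change of -0.45 (standard error 0.25) and a DESeq2 adjusted p of 0.482. The fold changes of Agrn, agrin, and Lamb1, a laminin chain, were -0.08 and -0.09.

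Receptors and turnover enzymes of collagen had medians of 0.05 over 10 genes and 0.03 over 16 genes. Ddr1, a collagen-binding receptor kinase abundant in oligodendrocytes, had 176 to 230 normalized counts in WT and 190 to 292 in KO, with a log2 fold change of 0.28 (standard error 0.13) and a DESeq2 adjusted p of 0.361. Itgb1, the shared integrin beta chain, and Adgrg1, a type III collagen receptor, had values of -0.12 and -0.18. The inhibitors of matrix metalloproteinases Timp2 and Timp3 had 0.11 and 0.02, and the metalloproteinase Mmp16 had 0.01.

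In the TGF-beta list, the pathway that raises collagen transcription in fibroblasts, the median over 16 genes was 0.03. Smad4, Smad3 and Tgfb2 had log2 fold changes of -0.05, 0.02 and 0.04. Tgfbr3, the co-receptor betaglycan, had 20.9 to 38.3 normalized counts in WT and 34.6 to 61.6 in KO, and Ccn1, a matrix protein induced by TGF-beta, had 6.28 to 31.1 in WT and 3.39 to 13.1 in KO. Both were named after their values were seen and neither received an adjusted p. In the insulin-like growth factor list, 11 of 16 genes were tested and the median was -0.07. Igfbp5, a binding protein related to Igfbp2, had 271 to 417 normalized counts in WT and 427 to 454 in KO, without overlap, with a log2 fold change of 0.28 (standard error 0.11) and a DESeq2 adjusted p of 0.194. The receptor Igf1r and the binding protein Igfbp4 had -0.01 and 0.03. Among the 5 transporters of GABA and taurine, the median was -0.16. Slc6a6, the taurine transporter, had 785 ± 45.4 (SD, n = 6) in WT and 703 ± 57.8 (SD, n = 5) in KO, with a DESeq2 adjusted p of 0.361, and the GABA transporter Slc6a11 had a log2 fold change of -0.37 (standard error 0.24).

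**Figure D5:**
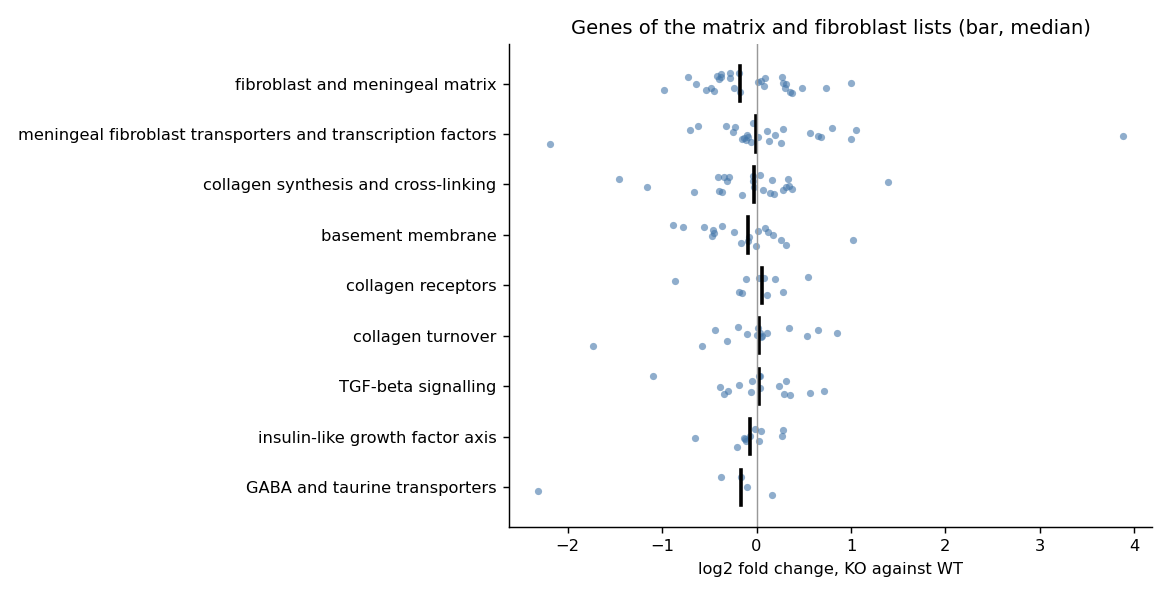
Log2 fold change of KO against WT (horizontal axis) of each gene tested in the 9 lists, one point per gene, with the median of each list as a bar. The medians lie between -0.18 and 0.05, and the widest points, such as Twist1 at 3.88, are genes with few reads.

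Markers of cells and tissues that border on fibroblasts were summed in the same animals. Over all 75 marker genes tested 0 passed the threshold with DESeq2, edgeR or limma, beside 0.539%, 0.21% and 0.113% of all genes tested. Only 35 of the 75 were given an adjusted p by DESeq2, so the others could not pass with it. An unadjusted p under 0.05 was given to 7 with DESeq2 (9.33%, beside 8.58% of all genes), 13 with edgeR (17.3%, beside 8.59%) and 14 with limma (18.7%, beside 8.28%). The 7, named after their values were seen, were Cdh5, Pdgfrb, Cnn1 and Aqp1 with lower and Des, Cnp and Snap25 with higher means in KO. Cdh5 marks endothelium and had 26.1 ± 8.32 (SD, n = 6) normalized counts in WT and 13.8 ± 6.47 (SD, n = 5) in KO, and Pdgfrb, of pericytes and fibroblasts, had 38.4 ± 14.7 (SD, n = 6) and 24.8 ± 2.03 (SD, n = 5). Their lists were mixed. Of 11 endothelial markers 5 had a positive and 6 a negative fold change, with a median of -0.07. Of 9 pericyte markers 4 were positive and 5 negative, with a median of -0.04. The most abundant marker of each list, Flt1 and Rgs5, had log2 fold changes of 0.27 and 0.03. Smooth muscle markers (6 genes) summed to 73.3 to 146.5 normalized counts in WT and 47.8 to 134 in KO, border macrophage markers (7 genes) to 24.6 to 54.2 and 43.0 to 67.1, and red blood cell markers (4 genes tested of 5) to 25.1 to 352 and 7.91 to 389. None of the markers listed was at 0 in all animals. When the fit also held each library's share of reads outside genes, an alternative that was added once the data had been seen, the log2 fold change of Col1a1 was -0.94, that of Col3a1 was -2.20 (reported as -0.03), that of Col4a1 was 0.09 (reported as -0.29), that of Dcn was -0.19 (reported as 0.30), that of Lum was 0.28 (reported as 1.25), and that of Slc6a13 was 0.69 (reported as 0.05). That share was 59.3 to 68.8 per 100 reads in genes in WT and 49.8 to 62.5 in KO libraries. It goes largely with genotype, so this fit cannot tell an effect of the share from an effect of genotype. The part of that share, of the choroid plexus and of residual meninges in the member values was not tested.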

How the data were processed

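Cortices of 6 WT and 5 KO mice were measured, 1 library each; replicate numbers come from the sample titles. The authors made the deposited counts from single-end 3′ reads trimmed of adapters and poly(A), aligned to GRCm39 with STAR (version 2.7.3a, per the submitters' processing notes) and counted per Ensembl gene with HTSeq (version 0.9.1), using strand and reads aligned to 1 place. These deposited counts were not normalized. PCR copies were not stated to be removed, and each count is a read. The floor of 3 counts (0.545 to 0.937 CPM) covers counting error only. Symbols and positions came from GENCODE, which matched 52610 of 53700 identifiers.

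DESeq2 (version 1.42.0, R version 4.3.3) was fitted to all genes with at least 10 counts in total, with genotype as the only term. Genes whose mean normalized count was 1.5 or more were kept in the results. The Benjamini-Hochberg adjustment ran over the genes left by independent filtering, with a threshold of 0.05. Of the 17626 genes kept, 6487 received an adjusted p. Genes under the mean of 70.4 set by independent filtering received no adjusted p. Intervals are 95% and rest on the fitted standard error, which includes the spread between animals. Alternatives were edgeR (version 4.0.16), limma (version 3.58.1) with voom weights, TMM factors, other filters, the replicate block and leaving out each animal. The fits were tested on simulated data. P-values measure the spread between these animals.

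The members and the gene lists were chosen with earlier results of these data known. Named genes are the members, up to 3 of highest mean in each list and any past the threshold, and the genes most like the members; others are named after their values were seen, and 1 gene that the rule includes is not reported here. Promoters are from RefSeq. Whether replicate numbers pair the animals is not stated. Deviations of same-numbered animals correlated at -0.005 to 0.066 over 5 pairs (mean 0.018). Those of other numbers correlated at -0.057 to 0.064 over 25 pairs (mean -0.004). So few pairs cannot exclude a pairing.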

Additional observations from a re-analysis of the deposited data

Results flagged for a closer look

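In 122 groups of 5 or 6 values, the value of 1 animal stood apart from the others of its genotype in 8, where chance gives about 6.1. Among the members this was Col4a2 in KO mouse 3, at 78.78 normalized counts with the next KO animal at 41.79, and with it the summed level of Col4a1 and Col4a2 in the same mouse, at 149.2 with the next at 105.8. Col4a1 in that mouse was 70.4, also the highest of its group. The choroid plexus markers of WT mouse 4 summed to 3699 with the next WT animal at 191.8, and the red blood cell markers of KO mouse 5 to 389.2 with the next at 46.46. Of the listed genes, Twist1 in WT mouse 2 stood at 1.338 with the others at 0, Ppib in WT mouse 1 at 259.1 with the next at 186, Agrn in KO mouse 1 at 122.7 with the next at 167.1, and Itgb1 in KO mouse 5 at 142.2 with the next at 199.9. The causes were not tested.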

How the results depend on the processing

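The number of members past the adjusted threshold was 0, and that of list genes was 0, in the reported fit and in each of 20 alternatives, of which 2 were added after seeing the data. The number of all genes past it was 95 as reported, 37 with edgeR, 20 with limma, 57 with independent filtering off, 3 with each library's share of reads outside genes in the fit and 27 without the 3 libraries high in choroid plexus markers, and leaving out each animal in turn gave 46 (without KO mouse 2) to 120 (without KO mouse 4). Whether the numbers shared by both genotypes pair the animals is not known. With the replicate block, over mice 1 to 5 of each genotype, 33 genes passed, against 48 in the same animals without it. The cause of these differences was not tested. Of 169 alternative fold changes of the 9 members tested, 21 had the other sign and 8 moved by over 1 standard error. Col1a1, Col4a2 and Lum kept their sign in all, and the 21 came from the other 6 members, whose reported values were between -0.29 and 0.30. Depth limits Lum, Col3a1 and Igf2 most, with 56, 117 and 16 reads in all.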
